A study of Mus musculus with 12 samples.

Results

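The 8 genes described here govern how a cell exports, takes up and makes cholesterol. *Abca1* and *Abcg1* encode the transporters that export cholesterol, *Nr1h2* encodes the liver X receptor LXRβ, *Mylip* encodes the ubiquitin ligase IDOL, *Srebf1* and *Srebf2* encode the SREBP transcription factors, and *Hmgcs1* and *Sqle* encode enzymes of sterol synthesis. They were chosen by name and matched by mouse gene symbol to the identifiers of the count tables, and they are 8 of the 54446 genes counted. All 8 had reads in every library and passed the filter on low counts in every comparison.

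RNA immunoprecipitation sequencing (RIP-seq) of YTHDF2 was performed on CD11b+ myeloid cells sorted from MC38 tumors, which grow from a mouse colon carcinoma line. All mice were WT (*Ythdf2* f/f), and the tumors were either left unirradiated (Ctrl) or given 1 local dose of 20 Gy (IR) 3 days before the cells were taken. Each condition had 3 pools of cells from several mice, which the study's methods call technical replicates, and every pool gave an Input library, made from a part of the lysate, and a YTHDF2 IP library, so that 12 libraries fell into 4 groups of 3. The sources differ on the antibody (Abcam in the sample records, Aviva in the methods) and on the RNA (selected mRNA in the records, a kit for total RNA in the methods). No IP with a control antibody was analysed here.

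Cells hold their cholesterol steady through opposing switches. When sterols are scarce, the SREBP proteins leave the endoplasmic reticulum and turn on sterol synthesis and uptake, and when sterols are plentiful, oxysterols activate the LXR receptors, which turn on *Abca1*, *Abcg1*, *Mylip* and *Srebf1*. IDOL, the product of *Mylip*, limits the uptake of lipoproteins, and myeloid cells that engulf dying cells rely on the export arm to dispose of the cholesterol they take in. YTHDF2 is a cytoplasmic reader of N6-methyladenosine (m6A) in mRNA and is known to bring bound transcripts to decay, and binding is read here as the enrichment of a transcript in the IP over its Input.

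The letters most often found around m6A are GGACT, with the methylated base in the middle. The motif was searched in the sequence of the coding transcript of each gene, read as the RNA is, where its matches cannot overlap one another. All 8 transcripts held it, with 35 matches in total. The match closest to the stop codon is shown for each gene with 10 bases on either side, as the place in the RNA of that gene where such a motif would be sought first, and capitals mark the motif. No methylation was measured in these libraries, so a match is a description of the sequence and not a modified site.
Abca1: ggagttctttGGACTtgcgtttccg
Abcg1: acttcttgagGGACTtattcagggt
Nr1h2: tcttgaagatGGACTcttcacctct
Mylip: tctgtaaagaGGACTttagccctat
Srebf1: ggctactgctGGACTgccagcagat
Srebf2: tttgcattctGGACTtgatagacgc
Hmgcs1: aaacacagaaGGACTtacgcccggc
Sqle: cttccacagtGGACTtgaggaccaa

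The windows were read from the mm10 genome with the GENCODE M21 annotation, and each lies in an exon. Those of *Abca1* (chr4:53035490-53035514, minus strand), *Mylip* (chr13:45406060-45406084, plus strand), *Srebf1* (chr11:60199965-60199989, minus strand) and *Hmgcs1* (chr13:119705419-119705443, plus strand) lie in the coding sequence, 306, 694, 55 and 170 bases from the stop codon. Those of *Abcg1* (chr17:31114831-31114855, plus strand), *Srebf2* (chr15:82204361-82204385, plus strand), *Sqle* (chr15:59330986-59331010, plus strand) and *Nr1h2* (chr7:44549925-44549949, minus strand) lie in the 3′ UTR, 558, 456, 81 and 48 bases from it. A match lay within 200 bases of the stop codon in 4 of the 8 members (*Srebf1*, *Hmgcs1*, *Sqle* and *Nr1h2*) and in 39.6% of the 14479 coding transcripts tested. Over these transcripts 91.4% held at least 1 match and the median density was 1.06 per kb, against 0.577 per kb in *Hmgcs1*, 0.682 in *Abca1*, 1.38 in *Srebf2* and 1.501 in *Nr1h2*, the lowest and highest pairs among the members. The transcript of *Abca1*, with 50 exons and 10262 bases, was longer than 97.9% of these transcripts, and that of *Nr1h2*, with 1999 bases, was longer than 28.6%.

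The Input libraries held 34445784 to 42382532 reads on genes and the IP libraries 27852948 to 33882664. Reads that the counting assigned to no gene made up 26.9% to 27.0% of Ctrl Input, 24.6% to 24.8% of IR Input, 41.8% to 42.7% of Ctrl IP and 49.4% to 54.1% of IR IP libraries. The total of each share held reads on genes, these reads and reads left ambiguous between genes. The counts do not show whether the reads assigned to no gene lay in introns or between genes. The part of this share in the results was not tested. Myeloid markers led the cell type markers, as the label of the sort has it: the 12 myeloid markers summed to 9648 to 10657 CPM, which are counts scaled to library size, in Ctrl and to 13136 to 13786 CPM in IR Inputs, whereas the 9 T and NK cell markers summed to at most 6.10 CPM and the 5 epithelial markers to at most 6.99 CPM in any Input, with *Krt19* at 0 reads in every library. B cell markers summed to 19.05 to 28.4 CPM and stromal markers to 30.3 to 34.5 CPM in the Inputs. In these bulk samples, fewer cells of a type and less RNA per cell cannot be told apart. *Ythdf2* itself stood at 58.5, 59.1 and 59.8 CPM in Ctrl and at 48.8, 52.0 and 56.6 CPM in IR Inputs, a log2 fold change of -0.25 (standard error 0.052, edgeR adjusted p = 0.000297).

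Levels below are CPM on one scale for all 12 libraries, whereas each log2 fold change was fitted on the scale of the libraries it compares. Over all genes tested, the first scale minus the second had a median of 0.079 on the log2 scale for IR over Ctrl in the Input, -0.0094 for IR over Ctrl in the IP, -0.075 for IP over Input in Ctrl and -0.054 for IP over Input in IR, so that a mean level and a fitted fold close to 0 can differ in sign. A gene was called when its edgeR adjusted p-value over all genes tested was under 0.05.

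Set per kilobase of exon, the members covered a wide range of levels. In the Ctrl Inputs *Nr1h2* was highest, at 38.8 ± 1.56 CPM per kb (SD, n = 3), followed by *Srebf2* at 23.8 ± 0.92, *Abcg1* at 18.9 ± 0.90, *Srebf1* at 12.8 ± 0.29, *Hmgcs1* at 11.5 ± 0.20, *Mylip* at 7.39 ± 0.22, *Sqle* at 4.43 ± 0.14 and *Abca1* at 0.849 ± 0.081 CPM per kb (SD, n = 3). The 2 exporters thus stood at opposite parts of the order, and no neighbours in it overlapped in their libraries. In the IR Inputs the order differed in one place: *Abcg1*, at 23.8 ± 1.04 CPM per kb, stood above *Srebf2*, at 20.8 ± 1.003 CPM per kb (SD, n = 3), without overlap. In the IPs *Nr1h2* was again highest and *Abca1* lowest, but *Mylip* came next after *Nr1h2* in Ctrl, at 11.8 ± 0.94 CPM per kb, where its range overlapped that of *Srebf2*, at 10.99 ± 0.51, and below *Abcg1* and *Srebf2* in IR, at 8.42 ± 1.23 CPM per kb (SD, n = 3), where it overlapped that of *Srebf1*, at 6.67 ± 0.59. In the IR IPs *Abcg1* at 11.3 ± 0.39 and *Srebf2* at 11.1 ± 0.75 CPM per kb overlapped as well.

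**Figure D1:**
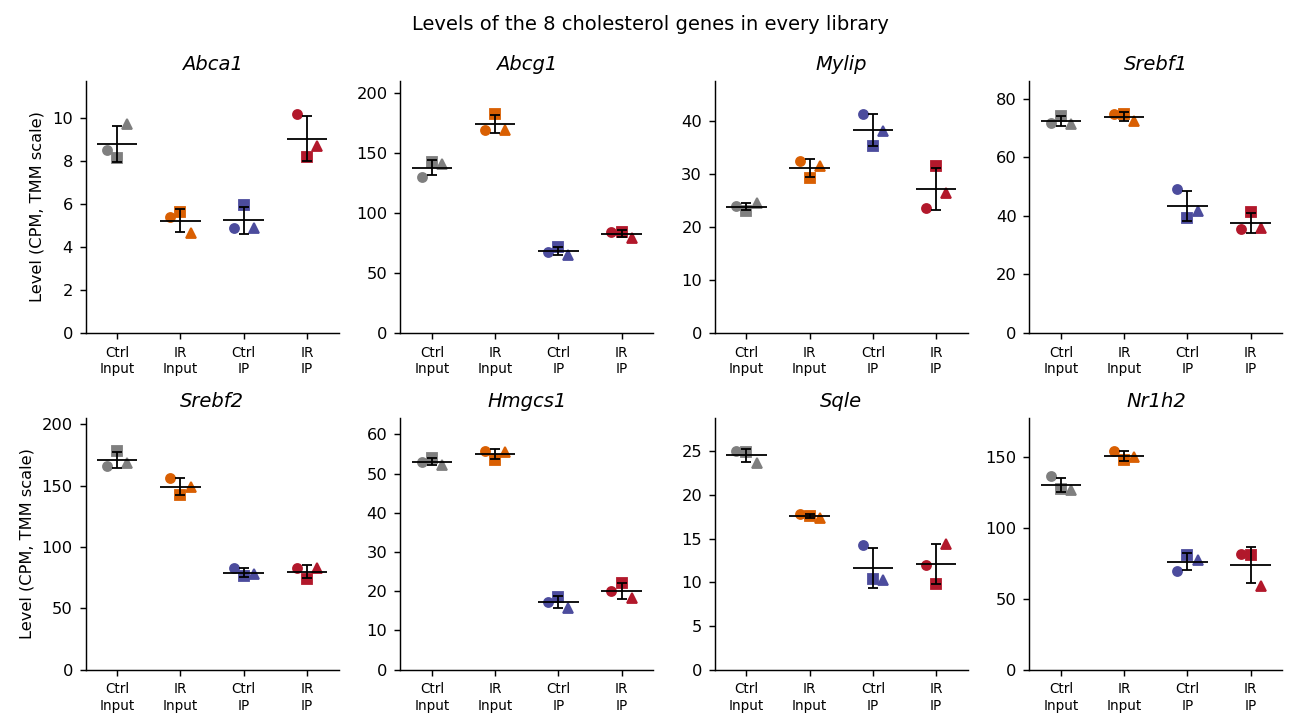
CPM of each of the 8 genes (vertical axis, from 0, with its own range in each panel) in the 3 libraries of each group, where circle, square and triangle are replicates 1, 2 and 3, the line is the mean and the bar is 1 SD. *Abca1* was lower in IR than in Ctrl in the Input and higher in the IP, *Mylip* was the only member with every Ctrl IP above every Ctrl Input, and the other 6 genes had every IP library below every Input library of the same condition.

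In unirradiated tumors most of the members were depleted from the YTHDF2 IP. Of the 8 genes, 7 were lower in the IP than in the Input and 1, *Mylip*, was higher, where 34.6% of all 17416 genes tested were lower and 34.1% higher. The median log2 fold change of the members was -0.78, against 0.018 over all genes tested. The same split was seen library by library: 7 members had every Ctrl IP below every Ctrl Input, and *Mylip* had every IP above.

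The exporter *Abca1*, which loads cholesterol onto lipid-poor apolipoprotein A-I, stood at 8.52, 8.13 and 9.74 CPM in the Ctrl Inputs and at 4.90, 5.98 and 4.87 CPM in the Ctrl IPs. The IP libraries were all below the Inputs, and the log2 fold change was -0.62 (standard error 0.17, edgeR adjusted p = 0.00412). It rested on 133 to 388 reads per library, the smallest counts among the members, and without replicate 3 the value was -0.48 and no longer past the threshold (adjusted p = 0.0695). *Abcg1*, which passes cholesterol on to maturing HDL, was depleted more evenly. It stood at 131, 143 and 141 CPM in the Inputs and at 67.4, 71.8 and 65.4 CPM in the IPs, a log2 fold change of -0.90 (standard error 0.055, edgeR adjusted p = 1.2e-10).

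*Nr1h2*, the widely expressed LXR receptor, stood at 136, 128 and 127 CPM in the Ctrl Inputs and at 69.3, 81.0 and 77.5 CPM in the Ctrl IPs. Its log2 fold change was -0.66 (standard error 0.063, edgeR adjusted p = 4.81e-08), close to that of *Abca1*. *Mylip*, whose product limits lipoprotein uptake, was the one member enriched. It stood at 24.1, 23.1 and 24.5 CPM in the Inputs and at 41.4, 35.3 and 38.1 CPM in the IPs, a log2 fold change of 0.80 (standard error 0.087, edgeR adjusted p = 2.42e-07), higher than 72.0% of all genes tested.

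The paralogs *Srebf1*, tied mostly to fatty acid synthesis, and *Srebf2*, the main activator of sterol synthesis, were both depleted. *Srebf1* stood at 71.6, 74.2 and 71.3 CPM in the Ctrl Inputs and at 49.3, 39.2 and 41.7 CPM in the Ctrl IPs, a log2 fold change of -0.62 (standard error 0.078, edgeR adjusted p = 1.75e-06). *Srebf2* stood at 166, 178 and 168 CPM in the Inputs and at 83.1, 76.2 and 77.6 CPM in the IPs, a log2 fold change of -0.99 (standard error 0.052, edgeR adjusted p = 1.25e-11). Of the enzymes, *Hmgcs1*, which makes the HMG-CoA from which mevalonate is formed, was the most depleted member. It stood at 52.9, 54.0 and 52.2 CPM in the Inputs and at 17.3, 18.6 and 15.7 CPM in the IPs, a log2 fold change of -1.501 (standard error 0.086, edgeR adjusted p = 4.14e-11). *Sqle*, the squalene epoxidase, stood at 25.1, 24.9 and 23.7 CPM in the Inputs and at 14.3, 10.3 and 10.2 CPM in the IPs, a log2 fold change of -0.96 (standard error 0.13, edgeR adjusted p = 3.87e-06).

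**Figure D2:**
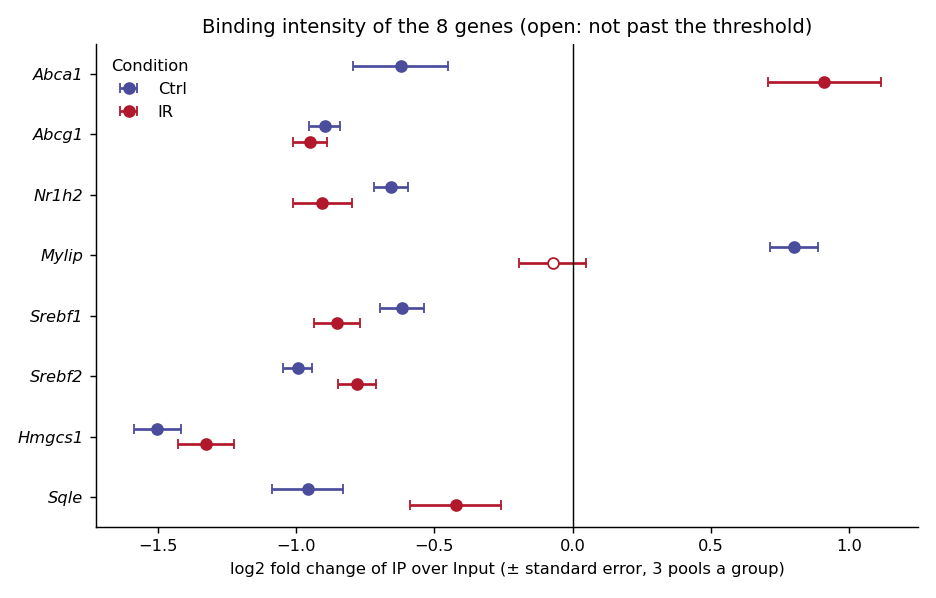
Log2 fold change of IP over Input for each member (horizontal axis) in Ctrl and in IR, where points are the fitted values, bars are 1 standard error of fits with 3 pools a group, and an open point did not pass the threshold. In Ctrl only *Mylip* lay above 0, and in IR only *Abca1* did, at 0.91.

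After IR the depletion was still seen for 6 of the 8 members, while *Abca1* and *Mylip* stood apart from it. *Abca1* was now higher in the IP than in the Input, *Mylip* did not pass the threshold, and the other 6 members were lower, where 32.1% of all 18650 genes tested were higher and 30.4% lower. The median log2 fold change of the members was -0.82, against 0.10 over all genes tested.

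*Abca1* stood at 5.42, 5.64 and 4.64 CPM in the IR Inputs and at 10.2, 8.18 and 8.72 CPM in the IR IPs. The IPs were all above the Inputs, the reverse of Ctrl, and the log2 fold change was 0.91 (standard error 0.20, edgeR adjusted p = 0.00262). Among the 1379 coding genes with transcripts of 6440 bases or more, to which *Abca1* belongs, the median in IR was 0.72. Of these genes, 63.7% were higher and 12.1% lower. The 1303 longest coding transcripts tested in Ctrl had a median of 0.35, with 49.7% higher and 27.7% lower. The part of length in both values of *Abca1* was not tested. The other exporter kept its depletion. *Abcg1* stood at 170, 183 and 170 CPM in the Inputs and at 84.6, 84.3 and 79.5 CPM in the IPs, a log2 fold change of -0.95 (standard error 0.061, edgeR adjusted p = 1.7e-07). For *Nr1h2* the Inputs were at 154, 148 and 150 CPM and the IPs at 81.6, 80.5 and 59.2 CPM, a log2 fold change of -0.90 (standard error 0.11, edgeR adjusted p = 2.58e-05).

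*Mylip* stood at 32.6, 29.3 and 31.6 CPM in the IR Inputs and at 23.7, 31.5 and 26.5 CPM in the IR IPs. The 2 groups overlapped, through the IP of replicate 2, and the log2 fold change was -0.071 (standard error 0.12, edgeR adjusted p = 0.629). *Srebf1* stood at 74.6, 74.8 and 72.3 CPM in the Inputs and at 35.6, 41.4 and 35.7 CPM in the IPs, with a log2 fold change of -0.85 (standard error 0.084, edgeR adjusted p = 5.71e-06). *Srebf2* stood at 157, 142 and 149 CPM in the Inputs and at 83.1, 73.6 and 82.8 CPM in the IPs, with a log2 fold change of -0.78 (standard error 0.070, edgeR adjusted p = 2.62e-06). Both SREBP transcripts therefore remained below their Inputs in every pool.

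*Hmgcs1* was again the most depleted, at 55.9, 53.5 and 55.6 CPM in the IR Inputs and 20.0, 22.2 and 18.2 CPM in the IR IPs, with a log2 fold change of -1.33 (standard error 0.10, edgeR adjusted p = 6.95e-07). *Sqle* stood at 17.9, 17.6 and 17.3 CPM in the Inputs and at 11.96, 9.83 and 14.4 CPM in the IPs, with a log2 fold change of -0.42 (standard error 0.16, edgeR adjusted p = 0.0432). This last call held under 3 of 10 alternative settings only. Without replicate 1, 2 or 3 the value was -0.34, -0.22 or -0.50, and none of these passed the threshold (adjusted p = 0.205, 0.316 and 0.0545).

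The change of binding with IR was tested directly, as the difference of the IR and the Ctrl log2 fold changes over all 12 libraries. Among the members, 1 gene rose, *Abca1*, and 1 fell, *Mylip*, where 6.28% of all 20720 genes tested were higher and 13.9% lower. *Abca1* rose by 1.55 on the log2 scale (standard error 0.26, edgeR adjusted p = 0.000204), and *Mylip* fell by 0.85 on the log2 scale (standard error 0.15, edgeR adjusted p = 0.000355). Both calls held under all 9 alternative settings run, between 1.40 and 1.87 for *Abca1* and between -1.01 and -0.54 for *Mylip*.

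The pools of each condition did not overlap for either gene. Within pools, the log2 ratio of IP to Input of *Abca1* was -0.79, -0.44 and -0.99 in Ctrl and 0.90, 0.53 and 0.90 in IR, on the scale of all 12 libraries. For *Mylip* it was 0.78, 0.61 and 0.64 in Ctrl and -0.46, 0.11 and -0.25 in IR. The binding of the 2 genes, both known LXR targets, thus changed in opposite directions, and the other exporter and LXR target, *Abcg1*, had a difference of -0.031 (standard error 0.084, edgeR adjusted p = 0.861), a value that turned positive in 5 of 9 alternative settings.

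The other members had smaller differences that did not pass the threshold. The value was 0.56 (standard error 0.22, edgeR adjusted p = 0.0787) for *Sqle*, 0.24 (standard error 0.087, adjusted p = 0.065) for *Srebf2* and 0.20 (standard error 0.13, adjusted p = 0.337) for *Hmgcs1*. It was -0.21 (standard error 0.12, adjusted p = 0.249) for *Srebf1* and -0.23 (standard error 0.13, adjusted p = 0.257) for *Nr1h2*. The 2 SREBP transcripts had values of opposite sign. With other settings *Srebf2* was called higher in 5 of 9, at 0.32 without replicate 1 (adjusted p = 0.0426), and *Sqle* in 3 of 9. Library size alone in place of TMM scaling moved the median change of all genes from -0.083 to 0.23 and the share of higher among called genes from 31.1% to 76.5%, and with it 5 members were called higher.

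Transcript length moved with the change of binding. Among the 1450 coding genes with the longest transcripts, of 6440 bases or more, to which *Abca1* belongs, the median change was 0.27 on the log2 scale, 26.3% were called higher and 11.3% lower. Among the 1452 coding genes with transcripts of 2931 to 3428 bases, to which *Mylip* belongs, the median was -0.10, 3.44% were higher and 16.3% lower. The part of length in the changes of *Abca1* and *Mylip* was not tested. The exons of *Abca1* and of *Mylip* overlap no other annotated gene.

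The abundance of the transcripts was compared between IR and Ctrl in the Inputs, where 3 members rose and 3 fell. *Abcg1*, *Mylip* and *Nr1h2* were higher in every IR Input than in any Ctrl Input, and *Abca1*, *Sqle* and *Srebf2* were lower in every one, where 21.0% of all 16914 genes tested were called higher and 23.9% lower. The exporters moved apart: *Abca1* fell by 0.83 on the log2 scale (standard error 0.13, edgeR adjusted p = 7.89e-06), and *Abcg1* rose by 0.26 (standard error 0.040, edgeR adjusted p = 7.26e-06). *Mylip* rose by 0.30 (standard error 0.068, edgeR adjusted p = 0.000597) and *Nr1h2* by 0.13 (standard error 0.039, edgeR adjusted p = 0.0076). The rise of *Nr1h2* was not past the threshold without replicate 2 (0.12, adjusted p = 0.0604) or without replicate 3 (0.11, adjusted p = 0.11), nor with all 12 libraries in one fit (0.21, adjusted p = 0.12).

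On the synthesis side, *Sqle* fell by 0.56 on the log2 scale (standard error 0.075, edgeR adjusted p = 6.81e-07) and *Srebf2* fell by 0.28 (standard error 0.038, edgeR adjusted p = 1.3e-06). *Srebf1*, at -0.048 (adjusted p = 0.398), and *Hmgcs1*, at -0.025 (adjusted p = 0.711), did not pass the threshold, and their libraries overlapped between the conditions. Cell type markers moved beside these values. Of the 12 myeloid markers, 7 were higher and 3 lower in the IR than in the Ctrl Inputs, where 21.0% of all genes tested were higher and 23.9% lower. The neutrophil genes *S100a8* and *S100a9* stood at 3089 and 6873 CPM per kb in Ctrl and at 4265 and 9577 CPM per kb in IR, and both rose. The macrophage genes *Adgre1* and *Csf1r* stood at 9.87 and 37.7 CPM per kb in Ctrl and at 8.82 and 36.7 CPM per kb in IR, and both fell. The libraries of both overlapped between the conditions. *Adgre1* ranged from 29.6 to 33.8 CPM in Ctrl and from 27.4 to 30.4 CPM in IR Inputs. *Csf1r* ranged from 213 to 222 CPM in Ctrl and from 209 to 218 CPM in IR Inputs. *Fcgr1*, another myeloid marker of the list, stood at 16.9 CPM per kb in Ctrl and at 13.2 CPM per kb in IR Inputs. Other monocyte and macrophage genes of the list had higher mean levels in the IR Inputs. *Cd68* stood at 44.0, *Ly6c2* at 72.0, *Ccr2* at 30.4 and *Cd14* at 18.4 CPM per kb in Ctrl. In IR these genes stood at 52.2, 81.2, 35.2 and 21.6 CPM per kb. The marker genes named here were picked after their values were seen. Their part in the changes of the members was not tested. The 1285 coding genes with the longest transcripts, *Abca1* among them, had a median Input change of -0.23 and 53.8% of them were lower, and the part of length was not tested here either.

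The RNA recovered in the IP showed another pattern. Between IR and Ctrl IPs, *Abca1* and *Abcg1* rose and *Mylip* fell, where 6.12% of all 19255 genes tested were higher and 9.85% lower, and 5 members did not pass the threshold. *Abca1* rose by 0.82 on the log2 scale (standard error 0.24, edgeR adjusted p = 0.0287) while its Input fell. *Mylip* fell by 0.46 (standard error 0.13, edgeR adjusted p = 0.0254) while its Input rose, and *Abcg1* rose by 0.31 (standard error 0.084, edgeR adjusted p = 0.0172), as did its Input. The IR IPs differed most among themselves, and each of these calls was lost when a single replicate was left out. *Abca1* had values of 0.69, 1.01 and 0.81 without replicate 1, 2 or 3, of which none passed the threshold (adjusted p = 0.161, 0.0596 and 0.126), and 0.78 with no filter on low counts (adjusted p = 0.0568). *Mylip* was at -0.25 with library size only (adjusted p = 0.205), at -0.29 without replicate 1 (adjusted p = 0.259) and at -0.42 without replicate 3 (adjusted p = 0.149). *Abcg1* was at 0.31 without replicate 1 (adjusted p = 0.0653) and at 0.36 without replicate 2 (adjusted p = 0.0576).

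**Figure D3:**
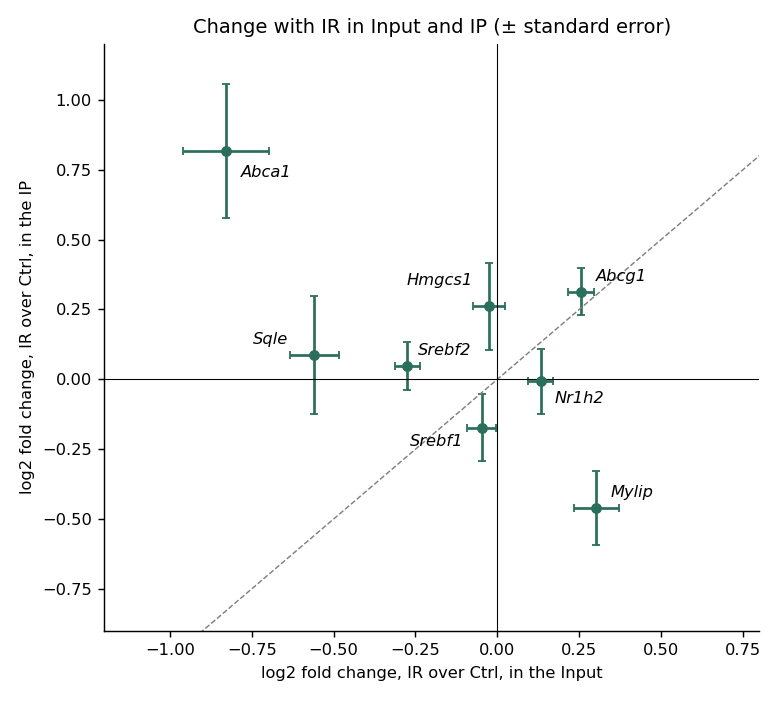
Log2 fold change of IR over Ctrl in the Input (horizontal axis) and in the IP (vertical axis) for each member, with bars of 1 standard error; the dashed line marks equal change in both. *Abca1* lies at -0.83 in the Input and 0.82 in the IP and *Mylip* at 0.30 and -0.46, on opposite sides of the line, whereas *Abcg1*, at 0.26 and 0.31, lies close to it.

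The genes whose 4 group means most resembled those of a member were sought among 10577 coding genes, by the Euclidean distance between the group means of log2 CPM after each gene was centred on its own mean. For *Abca1* they were *Macf1*, a giant protein that links microtubules to actin, at a distance of 0.18, and *Camsap2*, which protects microtubule ends, at 0.19. For *Mylip* they were *Ofd1*, a centriole gene, at 0.059 and *Tmem191c* at 0.073, and for *Abcg1* *Caprin2* at 0.046 and *Ubac1* at 0.062. The others were *Fblim1* (0.034) and *Hdac3* (0.034) for *Srebf1*, *Atp2c1* (0.026) and *Rbbp5* (0.030) for *Srebf2*, *Micu2* (0.045) and *Fam213a* (0.054) for *Hmgcs1*, *Fam76b* (0.035) and *Ext2* (0.051) for *Sqle*, and *Zfand2b* (0.020) for *Nr1h2*. None of the genes named was a member, and the distances to *Abca1* were the largest among the 8.

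The members were then set beside other genes of cholesterol metabolism, in lists that hold them too. In the list of 20 genes of cholesterol synthesis, 17 were lower in the IP than in the Input in Ctrl and 1 was higher, and 18 were lower and 0 higher in IR, where 34.6% of all genes tested were lower and 34.1% higher in Ctrl, and 30.4% and 32.1% in IR. The median log2 fold change of the list was -0.84 in Ctrl and -0.91 in IR, against 0.018 and 0.10 over all genes tested. The sterol dehydrogenase gene *Nsdhl* was at -2.50 in Ctrl (standard error 0.31, edgeR adjusted p = 1.37e-06) and at -2.29 in IR (standard error 0.31, adjusted p = 8.08e-05). *Ebp*, a sterol isomerase, was at -1.59 (standard error 0.15, adjusted p = 3.31e-08) and -1.998 (standard error 0.26, adjusted p = 5.47e-05). *Idi1*, the isopentenyl diphosphate isomerase, was at -2.28 in Ctrl (standard error 0.18, adjusted p = 4.51e-09) and *Lss*, which closes the sterol rings, at -1.64 in IR (standard error 0.29, adjusted p = 0.000548).

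For the change of binding with IR, edgeR called 1 of the 20 synthesis genes lower and 0 higher, where 13.9% of all genes tested were lower and 6.28% higher. DESeq2 called 3 of the 20 higher, and edgeR gave 3 higher at an unadjusted p under 0.05. The gene called lower was *Mvd*, which encodes the mevalonate diphosphate decarboxylase, at -0.53 (standard error 0.14, edgeR adjusted p = 0.00888), and the median over the list was -0.20, against -0.083 over all genes tested. In the Input 8 of the 20 fell and 2 rose with IR, where 23.9% of all genes tested were lower and 21.0% higher, and the median of the list was 0.014, against 0.0072 over all genes. Of these, *Idi1* fell by 0.62 on the log2 scale (standard error 0.10, edgeR adjusted p = 1.4e-05). A gene on the other strand overlaps 9.22% of its exon sequence, and the strand setting of the counting was not given in the sources used here. In the IP 0 of the 20 genes passed the threshold between IR and Ctrl by edgeR and 0 by DESeq2, while at an unadjusted p under 0.05 edgeR gave 5 lower and 0 higher.

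Of the 10 genes of the SREBP system, which senses sterols and releases the SREBP proteins, 6 were lower in the IP than in the Input in both conditions, and 4 were higher in Ctrl and 1 in IR, against the same shares of all genes tested, and the median of the list was -0.58 in Ctrl and -0.77 in IR. The retention protein genes *Insig1*, at -2.29 in Ctrl (standard error 0.14, edgeR adjusted p = 1.27e-10) and -2.16 in IR (standard error 0.24, adjusted p = 1.71e-05), and *Insig2*, at -1.35 (standard error 0.20, adjusted p = 1.34e-05) and -1.46 (standard error 0.24, adjusted p = 0.000315), had lower values than *Srebf1* and *Srebf2*. For the change of binding with IR, edgeR called 1 gene of the list lower, *Syvn1*, at -0.40 (standard error 0.088, adjusted p = 0.00244), and 0 higher, whereas DESeq2 called 1 higher and edgeR gave 1 higher at an unadjusted p under 0.05. Over all genes tested, 13.9% were called lower and 6.28% higher. In the Input 3 of the 10 genes fell and 2 rose, close to the 23.9% lower and 21.0% higher of all genes tested. *Insig1* fell by 0.43 (standard error 0.072, adjusted p = 2.02e-05) beside *Srebf2*, and *Scap*, the escort of the SREBP proteins, rose by 0.28 (standard error 0.056, adjusted p = 0.000199). The exons of *Scap* overlap another annotated gene over 13.2% of their length.

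Of the 11 genes of lipoprotein uptake 10 were tested. In Ctrl 4 were lower in the IP than in the Input and 2 were higher, and in IR again 4 were lower and 2 higher, where 34.6% and 34.1% of all genes tested were lower and higher in Ctrl and 30.4% and 32.1% in IR. The scavenger receptor gene *Cd36* was at -2.13 in Ctrl (standard error 0.11, edgeR adjusted p = 1.89e-11) and -2.20 in IR (standard error 0.16, adjusted p = 5.02e-07). With IR 1 gene of the list rose in binding and 3 fell, where 6.28% of all genes tested rose and 13.9% fell. *Lrp1*, a large receptor of lipoproteins, rose by 0.62 on the log2 scale (standard error 0.060, edgeR adjusted p = 2.46e-07), and in the IP it rose by 0.68 (standard error 0.054, adjusted p = 2.01e-07). Like *Abca1*, it has a coding transcript of more than 6440 bases. In that group the median change of binding was 0.27 and 26.3% were called higher. The part of length in the value of *Lrp1* was not tested.

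The 13 genes of efflux and LXR signaling held 5 that were higher and 5 that were lower in the IP than in the Input in Ctrl, with the same counts in IR, shares close to the 34.1% and 34.6% of all genes tested in Ctrl and the 32.1% and 30.4% in IR. *Rxra*, the partner receptor of LXR, was at 2.22 in Ctrl (standard error 0.046, edgeR adjusted p = 4.62e-17) and 1.51 in IR (standard error 0.050, adjusted p = 8.13e-10), and the corepressor gene *Ncor1* at 2.26 (standard error 0.038, adjusted p = 3.82e-18) and 1.33 (standard error 0.035, adjusted p = 1.43e-10). *Mertk*, a receptor for dying cells that LXR induces, was at 1.33 in Ctrl (standard error 0.067, adjusted p = 7.48e-12). With IR 2 of the 13 rose in binding and 5 fell, where 6.28% of all genes tested rose and 13.9% fell. *Abca1* had the largest rise of the list, *Ncor1* fell by 0.905 (standard error 0.049, adjusted p = 7.07e-11) and *Apoe*, a lipid carrier that receives exported cholesterol, fell by 0.71 (standard error 0.20, adjusted p = 0.0153).

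**Figure D4:**
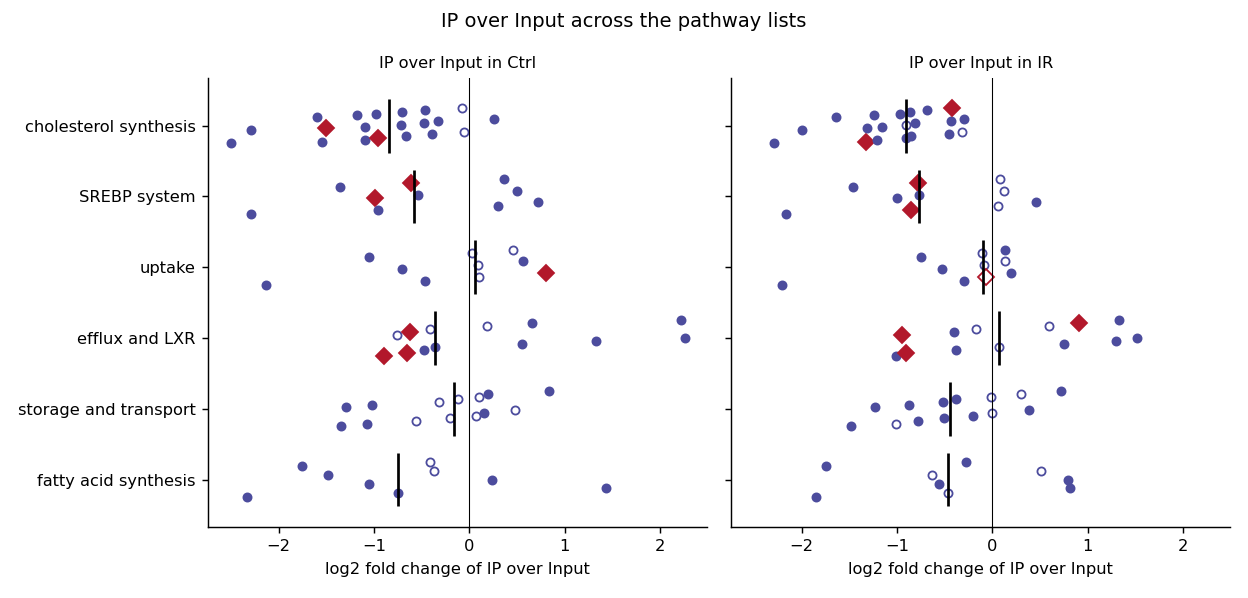
Log2 fold change of IP over Input (horizontal axis) for the genes of 6 lists of cholesterol and lipid metabolism in Ctrl and in IR, with red diamonds for the 8 members, blue circles for other genes, open symbols for genes not past the threshold and a black line for the median of each list; vertical spread within a list only separates the points. The medians of cholesterol synthesis lie at -0.84 in Ctrl and -0.91 in IR, and *Abca1* crosses 0 between the panels.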

How the data were processed

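The authors used Trimmomatic 0.39 for trimming, HISAT for alignment to mm10 with a setting for stranded reads, and HTSeq for counts per GENCODE M19 gene. The deposited values are whole-number counts without normalization, in 1 file per library. The strand setting of the counting and any removal of duplicates are not given in the sources used here. HTSeq's summary lines were left out of library sizes (24.6% to 54.1% of reads were assigned to no gene, with ambiguous reads only in the total).

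Symbols, exon lengths and sequences came from GENCODE M21 of the same build, which matched 99.9% of identifiers. A gene entered a test when 3 or more of the libraries compared held 10 or more of its counts, and the tool was edgeR 4.0.16 (R 4.3.3; TMM, quasi-likelihood test, Benjamini-Hochberg adjustment over all genes tested, threshold 0.05). The standard error is the absolute log2 fold change over the square root of F. The log2 ratio within pools used a prior count of 2. Scripts were tested on simulated data in which 200 genes were changed by a fold of 2. By edgeR, 6.60% of calls were false for the change of binding, 8.26% for IR over Ctrl in the Input and 5.24% for IP over Input in IR. Each of these exceeds the share that the threshold allows. The simulation gave all groups the same spread, whereas the IR IPs differed most among themselves.

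Alternatives were the size factors of DESeq2 1.42.0, library size only, DESeq2 itself, other filters, one fit of all 12 libraries, the replicate block, and each replicate number left out. Input and IP with the same number were taken to share a lysate, although their deviations did not correlate (r from -0.023 to 0.040 over 11728 genes). Numbers do not pair Ctrl with IR. Since the pools are called technical replicates, p-values measure only the spread between these pools, which may be technical. Within each group the replicates varied beyond counting noise (variance-to-mean ratio 3.59 to 21.5).

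The members and lists were chosen with earlier results of these data known. Besides the members and *Ythdf2*, genes were named as the 3 largest changes per list and comparison among called genes whose mean count was 100 or more, and as the 2 closest patterns per member; some genes that this rule named are not reported here.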

Additional observations from a re-analysis of the deposited data

Results flagged for a closer look

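The binding of 2 members differed between Ctrl and IR by the test of the difference itself. For *Abca1* the log2 ratio of IP to Input, taken as IR minus Ctrl, differed by 1.55 (standard error 0.26, edgeR adjusted p = 0.000204), from -0.62 in Ctrl to 0.91 in IR, and the 3 IR pools lay above 0 and the 3 Ctrl pools below it. Its Input fell and its IP rose, so that both parts of the ratio moved. The gene is the least abundant member per kilobase and has the longest transcript, and long transcripts as a group had a positive change. For *Mylip* the difference was -0.85 (standard error 0.15, edgeR adjusted p = 0.000355), from 0.80 in Ctrl to -0.071 in IR. With Input and IP matched by replicate number, 2 of 3 IR pools lay below 0. The share of reads assigned to no gene was also highest in the IR IPs, and the part of length and of this share in both differences was not tested.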

How the results depend on the processing

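For the change of binding with IR, 1 member was called higher. There were 2 with DESeq2 size factors, 5 with library size only, 3 with DESeq2, 3 with at least 10 counts in every library, and 1 to 2 with a replicate left out. Of the pathway genes, 8 were higher, and 13, 19, 15 and 15 under the same 4 settings, and 12 were lower, 3 with library size only and 6 to 11 with a replicate left out. With library size only, *Abcg1* turned to 0.28 and was called. For IR over Ctrl in the Input, 27 pathway genes were lower, and 12 with all 12 libraries in one fit, where the share of higher among all called genes moved from 46.8% to 63.6%. For IR over Ctrl in the IP, 2 members were higher (1 with no filter, 0 to 1 with a replicate left out) and 1 lower (0 with library size only, 0 to 1 with a replicate left out). Of the pathway genes 5 were higher (11 with library size only, 3 with no filter, 8 with all 12 libraries, 1 to 3 with a replicate left out) and 8 lower (4, 14 and 18 under those 3 settings). Library size only moved the share of higher among all called genes from 38.3% to 76.3% there, and at least 10 counts in every library moved it for the change of binding from 31.1% to 42.6%. The cause was not tested, apart from the fewer libraries when a replicate was left out.

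The replicate block changed no call of a member: in Ctrl it gave 7 members lower and 1 higher, with *Abca1* at -0.62, and for the change of binding 1.55 for *Abca1* and -0.86 for *Mylip*. Per kilobase of the coding transcript instead of all exons, 26 of 32 levels moved by over 1 SD, and *Sqle*, at 8.91 CPM per kb in the Ctrl Inputs, then stood above *Mylip*, at 7.80. Over all exons the GGACT density was 0.675 per kb in *Abca1* and 0.435 in *Hmgcs1*.

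Depth limits *Abca1* most, with 133 to 388 reads per library. Besides a microRNA with 0 reads, 2 annotated genes overlap members: an antisense gene with 0 to 6 reads shares 12.1% of the exon sequence of *Hmgcs1*, and *Rai1* on the other strand shares 1.93% of that of *Srebf1*. A shift in binding common to most genes would be hidden by TMM.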

Other observations

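Of 14 genes of sterol storage and intracellular transport, 4 were lower and 3 higher in the IP than in the Input in Ctrl, where 34.6% of all genes tested were lower and 34.1% higher. In IR 8 were lower and 2 higher, where 30.4% of all genes were lower and 32.1% higher. The lysosomal sterol carriers *Npc1*, at -1.34 in Ctrl (standard error 0.10, edgeR adjusted p = 1.79e-09) and -0.87 in IR (standard error 0.099, adjusted p = 1.83e-05), and *Npc2*, at -1.30 (standard error 0.051, adjusted p = 2.12e-13) and -1.48 (standard error 0.050, adjusted p = 9.15e-10), were depleted in both. *Soat1*, which esterifies cholesterol for storage, was at -1.08 in Ctrl (standard error 0.071, adjusted p = 3.31e-10). In the Input 4 rose and 5 fell with IR, where 21.0% of all genes rose and 23.9% fell, and *Cyp27a1*, which makes the LXR ligand 27-hydroxycholesterol, rose by 0.84 (standard error 0.078, adjusted p = 1.24e-09), more than any member.

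Some genes of fatty acid synthesis, which SREBP1 and LXR are known to induce, had lower Inputs after IR while *Srebf1* itself did not pass the threshold. Of 9 genes, 5 fell and 0 rose in the Input by edgeR (0 also by DESeq2 and at an unadjusted p under 0.05), where 23.9% of all genes tested fell and 21.0% rose, with a median of -0.39 against 0.0072 over all genes. *Fasn*, the fatty acid synthase, fell by 1.07 (standard error 0.045, edgeR adjusted p = 1.83e-16), *Acaca*, the acetyl-CoA carboxylase, fell by 1.001 (standard error 0.073, adjusted p = 1.15e-11) and the elongase gene *Elovl6* fell by 0.75 (standard error 0.068, adjusted p = 6.25e-10). In binding, 4 of the 9 rose with IR and 1 fell, where 6.28% of all genes rose and 13.9% fell: *Acly*, which makes the acetyl-CoA for both pathways, rose by 0.61 (standard error 0.13, adjusted p = 0.00146), *Acaca* rose by 0.59 (standard error 0.19, adjusted p = 0.0359) and *Elovl6* fell by 0.61 (standard error 0.17, adjusted p = 0.0116). In the IP itself, 2 of the 9 fell and 0 rose with IR by edgeR, where 9.85% of all genes fell and 6.12% rose. DESeq2 gave 0 higher there, and edgeR gave 2 higher at an unadjusted p under 0.05. *Fasn* fell by 0.46 in the IP (standard error 0.12, edgeR adjusted p = 0.0179) and *Elovl6* by 1.28 (standard error 0.13, adjusted p = 2.81e-06). The rises in binding thus came without a called rise in the IP.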
